A study of Mus musculus with 2 samples.

Results

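Potassium channel genes were described on 2 Affymetrix MOE430A arrays of mouse cochlear RNA. The members are all genes whose symbol begins with *Kcn* in the annotation of the array, other than *Kcnq1* and *Kcne1*, and they numbered 60 of the 12393 genes measured. They comprised 19 voltage-gated subunits, 13 inward rectifiers, 8 two-pore domain subunits, 6 subunits classed as calcium- or sodium-activated and 14 auxiliary subunits. Each member was read from its strongest probe set by mean level, among those naming that gene alone, and 20 of the 60 members had more than 1 probe set. Both RNA samples came from E18.5 embryos of a C57BL/6J background, bred from parents heterozygous for a targeted disruption of *Igf1* that acts in every tissue, and the dissected tissue held the otic capsule but no vestibular tissue. The labels count 8 cochleae per array, whereas the methods describe pools of 2 embryos with 3 pools for each genotype. The genotype is not settled. One array is titled +/+ but described as null under its source name, and the other is titled −/− but described as wild type. Hence the +/+ array and the −/− array are named here by title alone, a difference is always the −/− array minus the +/+ array, and every sign turns if the descriptions hold.

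Potassium channels are tetramers or dimers of pore-forming subunits, often joined by auxiliary subunits that set their gating and traffic. Voltage-gated subunits open on depolarisation, inward rectifiers and two-pore domain subunits hold the resting potential, and calcium-activated subunits couple the membrane to internal calcium. In the cochlea, potassium is the current carrier of the hair cell, and it is recycled through supporting cells and fibrocytes to the stria vascularis, where marginal cells secrete it and intermediate cells generate the endocochlear potential. Most of this physiology matures after birth in the mouse.

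Values are log2 levels per probe set as the authors deposited them, with the lowest ones listed at exactly 0. A probe set is called above the array median when its level exceeded, on each array, the median over all probe sets other than controls, which was 6.58 on the +/+ array and 6.63 on the −/− array. Each difference was centred by subtracting the median difference of all probe sets, 0.022. Each title has 1 deposited column of values, called an array here, and whether such a column holds 1 hybridisation or a summary of several pools is not stated. There are thus no replicates to compare, no test was possible, and precision is limited by having 2 columns. A level reflects the binding of its probes as well as the transcript, so the order of levels among genes is not an order of transcript amounts. In whole-cochlea RNA, fewer cells of a type and less RNA per cell cannot be told apart. *Igf1* itself was read on both arrays by 3 probe sets, the strongest at 11.42 on the +/+ array and 11.03 on the −/− array. All 3 were lower on the −/− array, with centred differences of −0.42, −0.75 and −0.58 from the strongest to the weakest. The study gives *Igf1* as absent from the null cochlea by qRT-PCR, and the labels are not settled by these values. Of 13 genes of cochlear epithelium and stroma, 10 were above the array median on both arrays, among them *Coch*, *Tecta*, *Otog* and *Oc90*, and *Otos*, *Pou4f3* and *Atoh1* were not. Their summed level on the linear scale was 12667 on the +/+ array and 10937 on the −/− array.

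The start regions of 4 members that the results below turn on are shown first, namely those of the member with the highest level, of the member with the most CG dinucleotides, of a neuronal member with nearly as many CG but a level below the median, and of a member that the study selected. Each window runs from 250 bases before to 50 bases after the annotated transcription start in RefSeq, build GRCm38.p6, and is written 5′ to 3′ along the gene, with CG dinucleotides in capitals.
Kcnk1, chr8:125994852-125995151, + strand: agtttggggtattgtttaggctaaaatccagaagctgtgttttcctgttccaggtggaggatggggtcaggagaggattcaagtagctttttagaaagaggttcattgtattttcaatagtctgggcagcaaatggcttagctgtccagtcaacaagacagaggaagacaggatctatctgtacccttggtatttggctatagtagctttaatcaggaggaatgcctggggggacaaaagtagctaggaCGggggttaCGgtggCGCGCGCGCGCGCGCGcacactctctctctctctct
Kcnmb4, chr10:116473474-116473773, - strand: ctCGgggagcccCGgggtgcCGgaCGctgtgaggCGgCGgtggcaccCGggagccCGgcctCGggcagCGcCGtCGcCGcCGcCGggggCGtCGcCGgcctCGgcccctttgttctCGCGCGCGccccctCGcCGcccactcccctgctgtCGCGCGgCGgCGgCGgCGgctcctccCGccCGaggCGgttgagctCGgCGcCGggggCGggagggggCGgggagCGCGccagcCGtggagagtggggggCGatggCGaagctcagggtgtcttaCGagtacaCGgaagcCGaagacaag
Kcnc1, chr7:46396218-46396517, + strand: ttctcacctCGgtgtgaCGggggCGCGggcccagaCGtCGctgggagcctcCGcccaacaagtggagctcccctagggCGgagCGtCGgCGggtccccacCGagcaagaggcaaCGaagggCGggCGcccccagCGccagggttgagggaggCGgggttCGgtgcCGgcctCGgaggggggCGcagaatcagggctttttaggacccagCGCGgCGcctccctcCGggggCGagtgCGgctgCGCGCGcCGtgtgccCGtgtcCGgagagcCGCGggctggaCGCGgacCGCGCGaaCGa
Kcnmb1, chr11:33962763-33963062, + strand: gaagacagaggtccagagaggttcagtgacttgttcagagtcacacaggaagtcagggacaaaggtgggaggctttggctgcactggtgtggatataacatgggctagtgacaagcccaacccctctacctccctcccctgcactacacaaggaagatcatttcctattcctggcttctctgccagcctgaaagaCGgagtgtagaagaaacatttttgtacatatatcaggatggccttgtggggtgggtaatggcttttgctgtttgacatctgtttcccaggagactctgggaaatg
The *Kcnk1* window held 10 CG, gathered near its 3′ end, that of *Kcnmb4* held 48, that of *Kcnc1* held 41, and that of *Kcnmb1* held 1.

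Most potassium channel genes were read at low levels in the late embryonic cochlea. Only 5 members, *Kcnk1*, *Kcnmb4*, *Kcnab2*, *Kcnj8* and *Kcnh2*, were above the median on both arrays, which is 8.33% of the members, while 56.0% of all genes measured passed the same rule. A further 3 members, *Kcnab1*, *Kcne4* and *Kcnk2*, were above the median on 1 array. The median of the members' mean levels was 4.47 and that of all genes 7.10. A mean level of 6 or less was found for 50 of the 60 members (83.3%) and for 36.0% of all genes. With 2 arrays of 1 tissue these shares describe the arrays, and the gap to other genes was not tested.

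**Figure D1:**
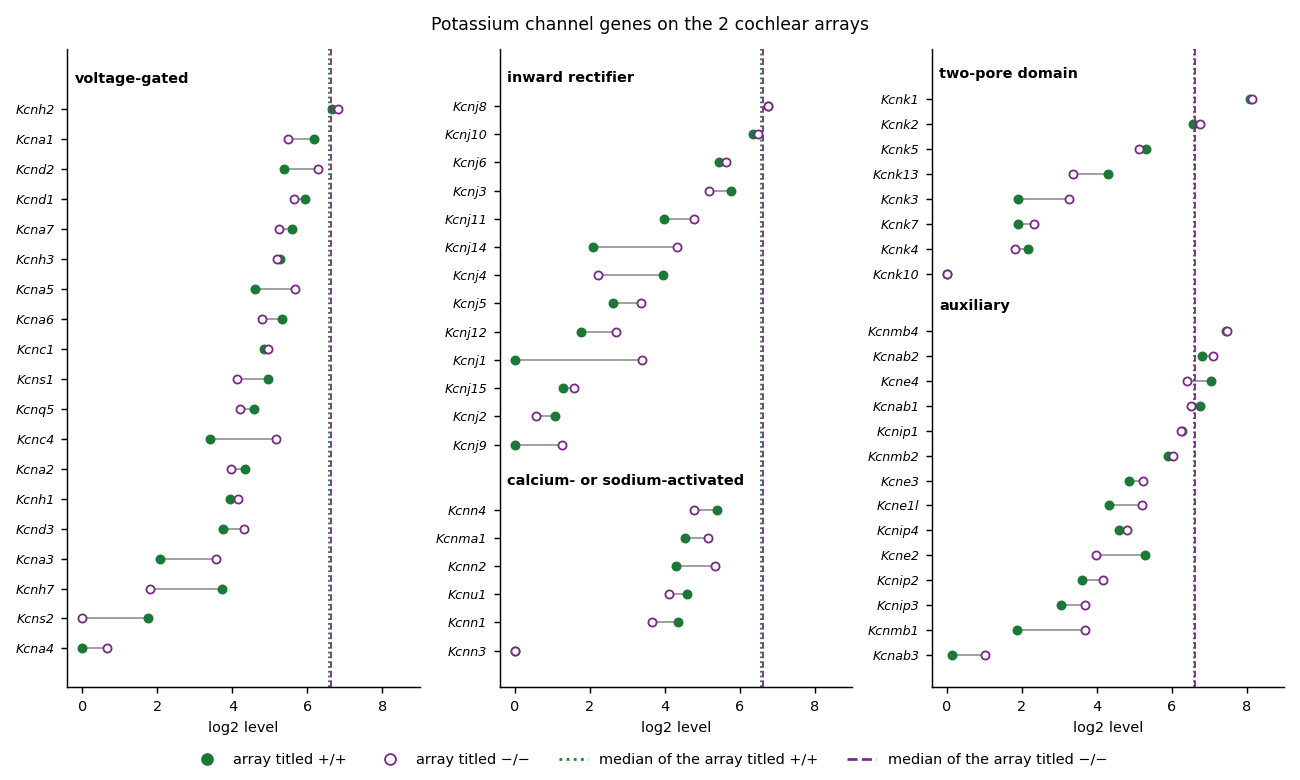
Log2 level (x axis) of the 60 potassium channel genes on the +/+ array (filled green) and the −/− array (open purple), each gene read from 1 probe set, joined by a grey line and sorted by mean level within each class. The vertical lines are the array medians, 6.58 and 6.63, and 5 genes lie to the right of both on both arrays.

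Low levels were found in other channel families too. None of 14 nicotinic receptor genes was above the array median on both arrays, and 5 of 34 genes of glutamate, GABA and glycine receptors were (14.7%). Of the calcium channel genes (*Cacn*), 5 of 23 (21.7%) were above the array median, of the sodium channel genes (*Scn*) 3 of 9 (33.3%), and of the TRP channel genes 6 of 19 (31.6%). The chloride channel genes (*Clcn* and *Clic*) stood on the other side, with 7 of 10 (70.0%). Solute carriers were between them, with 111 of 273 (40.7%). None of these differences from the potassium channel genes was tested.

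**Figure D2:**
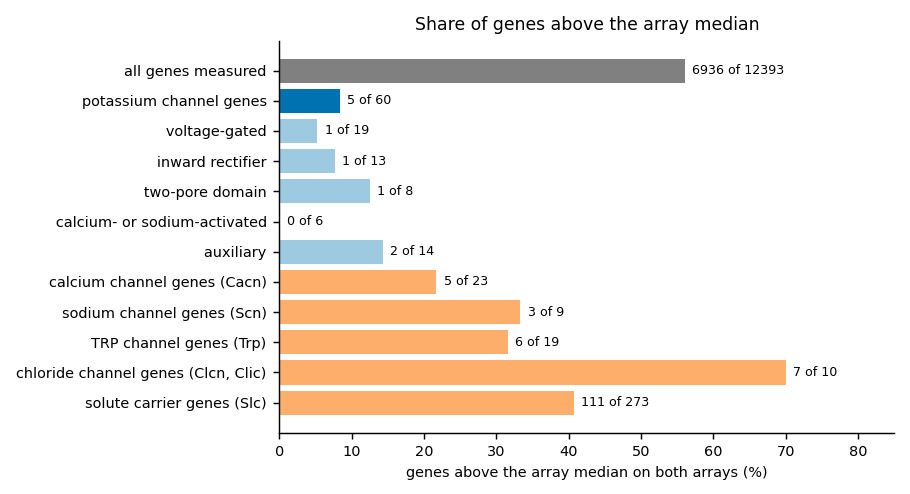
Percent of genes above the array median on both arrays (bars from 0) for all genes measured (grey), the potassium channel genes (dark blue), their 5 classes (light blue) and other transport families (orange), with the counts beside each bar. The bar of the potassium channel genes ends at 8.33% and that of all genes at 56.0%, and no calcium- or sodium-activated subunit was above the median.

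Among the two-pore domain subunits, which carry leak current, *Kcnk1* (TWIK-1) had the highest level of all members. It was at 8.09 on the +/+ array and 8.13 on the −/− array, a centred difference of 0.014. Its second probe set was at 6.18 and 6.57, a difference of 0.36. *Kcnk2*, the stretch- and lipid-sensitive TREK-1 channel, was at 6.55 and 6.74, a difference of 0.17, and lay on either side of the medians. *Kcnk5* (TASK-2), an alkaline-activated channel known from outer sulcus cells, was at 5.31 and 5.11. Its other probe set differed by −1.09 in the same direction, at 3.84 and 2.77. The acid-sensitive *Kcnk3* (TASK-1) was at 1.90 and 3.26 for its strongest probe set, and its other 2 probe sets were listed at 0 on both arrays. *Kcnk13* (THIK-1), known from microglia, was at 4.28 and 3.37, a difference of −0.94. The remaining members *Kcnk4*, at 2.17 and 1.80, and *Kcnk7*, at 1.89 and 2.32, were low on both arrays, and *Kcnk10* was listed at 0 on both.

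Inward rectifiers were led by *Kcnj8*, the pore of the ATP-sensitive channel of pericytes and vascular smooth muscle. It was at 6.77 on the +/+ array and 6.76 on the −/− array, a difference of −0.027. Of 8 genes of smooth muscle and pericytes, 6 were higher on the −/− array and 2 lower, with a median of 0.46. The lower ones were *Pdgfrb* and *Rgs5*, at −0.040 and −0.11, while *Acta2* and *Tagln* differed by 0.47 and 0.66. Their part in the *Kcnj8* values was not tested. *Abcc9*, the sulphonylurea receptor that pairs with *Kcnj8*, was at 5.50 and 6.02, a difference of 0.49. *Kcnj10*, the channel of strial intermediate cells and satellite glia on which the endocochlear potential depends, was just below the median on both arrays, at 6.36 and 6.48, a difference of 0.098. Of 7 measured genes of strial intermediate cells and melanocytes, 5 were lower on the −/− array and 2 higher, with a median of −0.35, summed linear levels of 1241 and 1006 and no gene at 0. *Dct*, which intermediate cells express strongly, was at 8.81 and 8.28. Genes of central glia, which also express *Kcnj10*, were higher on the −/− array for 7 of 8, with a median of 0.33. Their summed linear levels were 1914 and 2421, and *Mog* and *Slc1a2* were listed at 0 on at least 1 array. Only 2 of these 8, *Slc1a3* and *Fabp7*, were above the array median on both arrays, with differences of 0.0082 and 0.30. The part of either cell type in the *Kcnj10* values was not tested.

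The G protein-gated subunits, which slow the heart and dampen neurons, were read from *Kcnj3*, *Kcnj5*, *Kcnj6* and *Kcnj9*. *Kcnj3* was at 5.77 and 5.17, *Kcnj6* at 5.45 and 5.65 and *Kcnj5* at 2.63 and 3.37, on the +/+ and −/− arrays respectively. *Kcnj9* was listed at 0 on the +/+ array and was at 1.26 on the −/− array. The 5 probe sets of *Kcnj6* spread from −1.93 to 1.68, and 1 of them was listed at 0 on both arrays. The strong rectifiers set the resting potential of muscle and neurons. *Kcnj2* was at 1.08 and 0.57 and *Kcnj12* at 1.76 and 2.72, a difference of 0.93. *Kcnj14* was at 2.09 and 4.32, a difference of 2.20, and *Kcnj4* at 3.94 and 2.21, a difference of −1.75. *Kcnj11*, the pore of the ATP-sensitive channel of muscle and the beta cell, was at 3.99 and 4.79, a difference of 0.78. *Kcnj1*, the ROMK channel of the renal tubule, was listed at 0 on the +/+ array and was at 3.40 on the −/− array, and its second probe set was listed at 0 on both. *Kcnj15* was at 1.29 and 1.59.

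Voltage-gated subunits made up the largest class, and *Kcnh2*, the ERG channel of cardiac repolarisation, was the one member above both medians, at 6.65 and 6.81, a difference of 0.14. Of the others of its subfamily, *Kcnh3* was at 5.27 and 5.18 and *Kcnh1* at 3.93 and 4.14, while *Kcnh7* was at 3.71 and 1.79, a difference of −1.94. Among the Shaker subunits, *Kcna1*, which lines the juxtaparanodes of myelinated axons, was at 6.19 on the +/+ array and 5.48 on the −/− array, a difference of −0.73. *Kcna2*, its partner there, differed by −0.40 and *Kcna6* by −0.56. Genes of Schwann cells, which myelinate axons, were lower on the same array for 6 of 7, with *Mbp* at 9.71 and 9.01. Their summed linear levels were 5067 and 4634, with no gene at 0, whereas genes of neurons were higher there for 8 of 12. The part of either cell type in the *Kcna1* difference was not tested. *Cntnap2*, which clusters these channels, differed by −0.31 at 7.39 and 7.10.

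*Kcna5* and *Kcna3* differed in the other direction. *Kcna5*, of atrial and vascular muscle, was at 4.60 and 5.67, a difference of 1.05, and *Kcna3*, of lymphocytes, was at 2.07 and 3.57, a difference of 1.47. *Kcna4* was listed at 0 on the +/+ array and was at 0.65 on the −/− array, and *Kcna7*, of skeletal muscle and heart, was at 5.58 and 5.25. *Kcna1*, *Kcna5* and *Kcna6* are direct neighbours on chromosome 6, as are *Kcna2* and *Kcna3* on chromosome 3, and the pairs *Kcna5* and *Kcna1* and *Kcna3* and *Kcna2* differed in opposite directions. The neighbours *Kcna1* and *Kcna6* differed in the same direction, as did *Kcnj6* and *Kcnj15* on chromosome 16, by 0.17 and 0.27, and *Kcnj5* and *Kcnj1* on chromosome 9. *Kcnj9* and *Kcnj10* on chromosome 1 did so too, by 1.23 and 0.098. *Kcnip1* and *Kcnmb1* on chromosome 11 differed in opposite directions, by −0.043 and 1.78. The probe sets of *Kcnj6* and of *Kcnip1* went both ways.

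*Kcnd2* encodes Kv4.2, the dendritic A-type channel, and was selected by the study on its own arrays, so its values here are not independent evidence. The study gives it as lower in the null cochlea. This is opposite to the sign found here if the titles hold and the same if the descriptions hold, and the labels are not settled by it. The study also followed *Kcnd2* by qRT-PCR across ages. A figure legend there places the lower level after birth, while the text counts the gene as affected in embryos too. *Kcnd2* was at 5.37 on the +/+ array and 6.28 on the −/− array, a difference of 0.90. Its other probe sets differed by 0.46, at 5.18 and 5.67, and by 1.04, with a value listed at 0 on the +/+ array. All 3 probe sets were thus higher on the −/− array. The other Shal subunits were *Kcnd1*, at 5.93 and 5.64, and *Kcnd3*, at 3.76 and 4.30. Of the Kv4-interacting proteins, *Kcnip1* was at 6.27 and 6.25 and its 4 probe sets ranged from −0.20 to 1.52, while *Kcnip2*, *Kcnip3* and *Kcnip4* differed by 0.54, 0.62 and 0.19 at levels below 5. *Dpp6*, a further Kv4 partner, was above the medians at 6.69 and 7.21, a difference of 0.49. Of 12 neuronal genes, 8 were higher on the same array, with a list median of 0.31, summed linear levels of 6856 and 7942 and no gene at 0. *Stmn2* was at 9.87 and 10.34, whereas *Scg2* was at 7.82 and 7.43 and *Nefl* at 10.65 and 10.49. Whether neuronal RNA accounts for the *Kcnd2* values was not tested.

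Of the fast-spiking Shaw subunits, *Kcnc1* (Kv3.1), known from auditory neurons, was at 4.85 and 4.94, a difference of 0.067. *Kcnc4* was at 3.39 and 5.16, a difference of 1.75 read from a probe set ending in _s_at, which can match more than 1 transcript, and its other probe set differed by 0.92. *Kcnq5*, the one M-current subunit of the list, was at 4.57 and 4.22. The silent subunit *Kcns1* was at 4.94 and 4.14, and *Kcns2* was at 1.74 on the +/+ array and listed at 0 on the −/− array. *Kcna10* and the fibrocyte gene *Kcnj16* were not analysed here.

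Subunits classed as calcium- or sodium-activated were all below the median. *Kcnma1*, the BK channel that shapes the receptor potential of inner hair cells, was at 4.53 and 5.15, a difference of 0.60, and its second probe set gave 0.56. *Kcnn2*, the SK channel of the efferent synapse on outer hair cells, was at 4.30 and 5.34, a difference of 1.01 at the very edge of the limit of 1 log2 unit. Of 10 measured hair cell genes, 5 were higher and 5 lower, with a median of −0.038 and summed linear levels of 980.2 and 970.6. *Slc26a5*, the outer hair cell motor, was at 2.83 on the +/+ array and listed at 0 on the −/− array. *Kcnn4*, the channel of red blood cells and T cells, was at 5.40 and 4.79, a difference of −0.64, and its second probe set gave −0.54. Genes of red blood cell precursors were lower on the same array for 6 of 8, with a median of −1.25. Their summed linear levels were 478.6 and 455.8, and *Epb42* was listed at 0 on the +/+ array. Only 2 of the 8 were above the array median on both arrays, *Alas2* and *Ank1*, and they differed by −0.44 and 0.86. The part of these cells in the *Kcnn4* values was not tested. *Kcnn1* differed by −0.73 and −0.31, and *Kcnn3* was listed at 0 on both arrays. *Kcnu1* (Slo3), known from sperm and placed in this class by family and not by its gating, differed by −0.51.

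Auxiliary subunits gave 2 of the 5 members above the median. *Kcnmb4*, the BK beta subunit of neurons, was at 7.44 and 7.46, a difference of −0.0087. *Kcnab2*, a cytoplasmic Kv beta subunit, was at 6.79 and 7.09, a difference of 0.28, but its weaker probe set was at 0.92 on the +/+ array and listed at 0 on the −/− array, and the mean over both probe sets was −0.33. *Kcnab1* was at 6.76 and 6.52, a difference of −0.27, with −0.83 for its second probe set, and *Kcnab3* was at 0.13 and 1.02. *Kcnmb2*, a BK beta subunit that inactivates the channel, was at 5.90 and 6.02.

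*Kcnmb1*, the BK beta subunit of smooth muscle, was also selected by the study on its arrays and given there as lower in the null, so that its sign here is likewise opposite by title and the same by description. It was at 1.87 on the +/+ array and 3.67 on the −/− array, a difference of 1.78, and its second probe set gave 1.59 at 0.93 and 2.54. Both probe sets moved together, at levels where differences above 1 were common. Of 8 genes of smooth muscle and pericytes, 6 were higher on the −/− array, and their summed level on the linear scale was 3829 and 4728. *Cnn1* was at 0.45 and 3.45, *Tagln* at 8.05 and 8.73 and *Acta2* at 10.33 and 10.81. The 2 lower ones were *Pdgfrb*, at 9.75 and 9.74, and *Rgs5*, at 9.85 and 9.77. Skeletal muscle genes were higher there for 16 of 17, with summed linear levels of 22306 and 37102 and no gene at 0. Besides *Kcnmb1*, *Kcna5* and *Kcnj11*, which were higher, further members linked to muscle above went both ways. *Kcna7*, *Kcnj8*, *Kcnj2* and *Kcnj4* differed by −0.35, −0.027, −0.54 and −1.75, and *Kcnj12* and *Kcnj14* by 0.93 and 2.20. The part of muscle in the values of all these members was not tested.

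*Kcne* genes encode single-span proteins that retune voltage-gated pores. *Kcne4*, which inhibits the *Kcnq1* channel, was at 7.03 on the +/+ array and 6.41 on the −/− array. Its difference of −0.65 was the only one beyond 0.5 among the 8 members with a mean level from 6 to 7, a size that 8.77% of all genes of this level reached. *Kcne2*, known from gastric and choroid plexus epithelium, was at 5.27 and 3.97, a difference of −1.32, while *Kcne3* and *Kcne1l* (also known as *Kcne5*) differed by 0.37 and 0.84. *Kcne1* and *Kcnq1*, the strial marginal cell pair, were at 4.43 and 0.72 and at 5.81 and 3.42. *Kcne2* and *Kcne1* lie on chromosome 16 with 3 other coding genes between them. All 8 genes of lung epithelium were lower on the same array too, with summed linear levels of 2735 and 329 and no gene at 0, and how far epithelium of other organs enters these values was not tested.

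Over all members, 33 were higher and 25 lower on the −/− array, and 2 were listed at 0 on both. Of all 12393 genes, 6263 were higher and 5838 lower, and 292 were listed at 0 on both. The median centred difference was 0.095 for the members and 0.0028 for all genes. By the study's limit of 1 log2 unit, 9 members (*Kcnj1*, *Kcnj14*, *Kcnmb1*, *Kcnc4*, *Kcna3*, *Kcnk3*, *Kcnj9*, *Kcna5* and *Kcnn2*) were higher on the −/− array, where 5.54% of all genes were. There were 4 members (*Kcnh7*, *Kcns2*, *Kcnj4* and *Kcne2*) below −1, where 4.07% of all genes were. With values below the 25th percentile of each array raised to it, 2 members (*Kcna5* and *Kcnc4*) stayed above 1 and 1 (*Kcne2*) below −1. The shares of all genes were then 0.831% and 0.533%, and 10 of the 13 members no longer passed the limit. Among these 10, *Kcnn2* had both levels above the percentile and fell to 0.9986 through the changed centring alone. The others each had a level below the percentile on at least 1 array. Just outside the limit were *Kcnk13* at −0.94, *Kcnj12* at 0.93 and *Kcnd2* at 0.90. The mean levels of these 13 members ran from 0.63 to 5.13, and 3 of them touched 0 on an array. Low level was shared by most members, and among genes not above the median on both arrays 21.4% differed by more than 1 either way, as did 13 of the 55 members of this kind (23.6%), a share near the background. Of the 5 members above the median, none differed by more than 0.3, a limit that 8.92% of such genes passed.

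**Figure D3:**
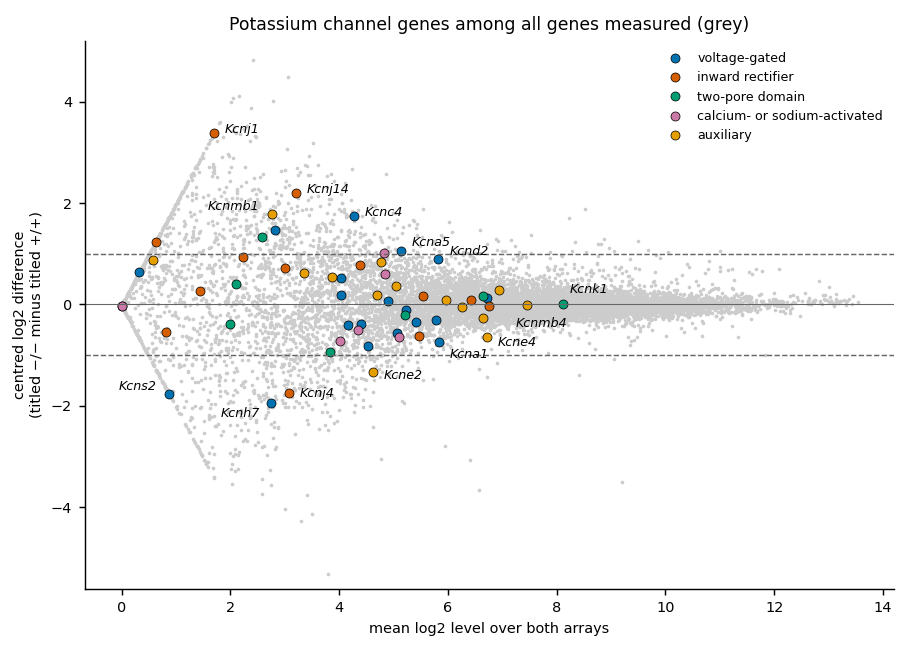
Centred log2 difference, titled −/− minus titled +/+ (y axis), against the mean of the log2 levels on both (x axis), with 1 point per gene, all genes in grey and potassium channel genes coloured by class. The dashed lines mark 1 and −1, the 13 members outside them have mean levels of at most 5.13, and *Kcnk1* and *Kcnmb4* lie at 0.014 and −0.0087.

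Different probe sets of a gene gave the only repeat of a difference. Over 48 probe sets of 20 members, their differences had a pooled SD of 0.83, and over 12943 probe sets of 4956 genes the SD was 0.61. Probe sets of 6 members, *Kcnab2*, *Kcnip1*, *Kcnip2*, *Kcnip3*, *Kcnj6* and *Kcnmb2*, differed in opposite directions, which is 30.0% of the members with several probe sets, against 51.9% of all such genes. The SD of the difference over all genes was 1.17 at mean levels below 2, where 10 members lay, and 1.29 from 2 to 4. It was 0.76 from 4 to 5, where 15 members lay and 17.7% of all genes differed by more than 1. From 5 to 6 it was 0.49, from 6 to 7 it was 0.33, and above 7, where only *Kcnk1* and *Kcnmb4* were found, it was 0.20.

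**Figure D4:**
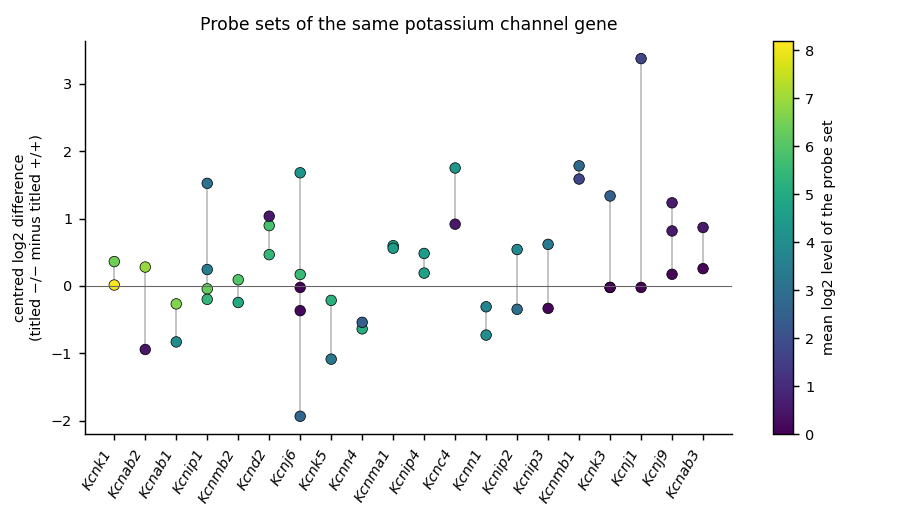
Centred log2 difference, titled −/− minus titled +/+ (y axis), of each probe set of the 20 members with more than 1 probe set (x axis), coloured by the mean log2 level of the probe set and ordered by the strongest one. The points of *Kcnj6* reach from −1.93 to 1.68, while those of *Kcnma1* lie at 0.56 and 0.60.

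Among genes that work with these channels, those of potassium cycling were read at higher levels, while most other channel partners were not above the array median. Of 11 measured genes of potassium cycling, 10 were above the median on both arrays, 3 were higher and 8 lower, and the list median was −0.15. *Slc12a2*, the cotransporter that loads marginal cells, was at 10.08 and 9.89, and the sodium pump subunit *Atp1b1* at 9.32 and 9.64. The connexin *Gjb2* was at 9.74 and 8.96, a difference of −0.80, and the kinase *Stk39*, which activates the cotransporter, at 7.60 and 7.23, a difference of −0.40. *Bsnd*, the chloride channel subunit of marginal cells, was at 4.91 and 3.79. Of 9 channel partners outside the *Kcn* genes, 2, *Dpp6* and *Cntnap2*, were above the median, with a list median of −0.10. The shares above the median were 90.9% for potassium cycling, 22.2% for these partners and 56.0% for all genes.

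CG counts in the start regions varied between the classes. A RefSeq window was found for 50 of the 60 members, the others being *Kcna1*, *Kcnab3*, *Kcnd1*, *Kcnh3*, *Kcnj11*, *Kcnj14*, *Kcnk3*, *Kcnn2*, *Kcns2* and *Kcnu1*, and a member with several windows was counted by the one with the most CG. The median number of CG in 300 bases was 21.0 for 15 voltage-gated members, 10 for 11 inward rectifiers, 10 for 7 two-pore domain members, 13.5 for 4 calcium-activated members and 12.0 for 13 auxiliary members. At least 15 CG were held by 12 of the 15 voltage-gated windows (80.0%) and by 26 of all 50 (52%). Among all 5659 genes above the array median with a window this share was 80.6%, and among the 4223 other genes it was 40.6%, with medians of 23.0 and 10. The voltage-gated windows thus had CG counts near those of genes above the median, although *Kcnh2* was the only one of them above it on both arrays. *Kcnmb4* and *Kcnk1*, the members of the highest levels, had 48 and 10 CG, as printed above. The differences between classes were not tested.

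**Figure D5:**
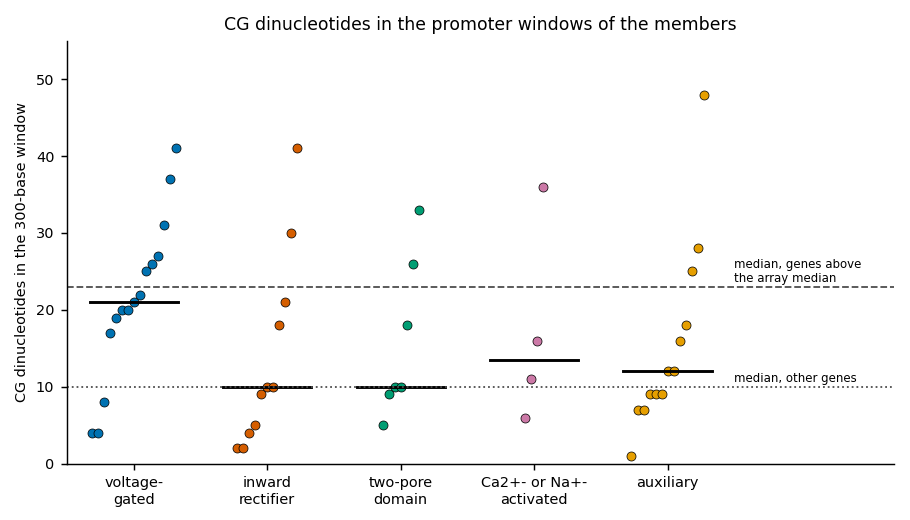
CG dinucleotides per 300-base start window (y axis) for 50 members by class, with 1 point per gene and the class median as a black bar. The dashed line at 23.0 and the dotted line at 10 are the medians of all genes above the array median and of the other genes, and the voltage-gated bar lies at 21.0.

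Other letters were rare. TATAAA, searched on both strands, was found for *Kcnab1*, *Kcnj9* and *Kcnj15*, 3 of the 50 members (6.0%), and for 11.9% of all genes with a window. The MEF2 consensus, also searched on both strands because the study turned to that factor, was found for *Kcnj9* alone (2.0%) and for 2.44% of all genes, and it did not overlap the TATAAA there. A match is a stretch of letters and not a bound site.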

How the data were processed

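The 2 cochlear arrays were taken as deposited. The authors hybridised biotin-labelled cRNA to MOE430A arrays. Of the summaries their methods mention (MAS5.0, RMA and the multi-mgMOS model in PUMA), the sources used here do not say which gave the deposited log2 values, or how the arrays were scaled. The base of the logarithm was read from the range of the values. Of 22690 probe sets, 64 controls were removed, 20380 named 1 gene, 691 several and 1555 none, and genes were named only from the first kind. All 60 members matched the RefSeq gene table by gene identifier, and this match was used for neighbours and for the start windows. Class, partner and marker lists, the members and the rule for named genes were chosen with earlier results of these data known. Named were members above the median, those the study picked, those with a known cochlear role and the 5 largest differences in each direction. The others were added to account for every member, as was the CG count, chosen after the values were seen. With 1 deposited column per title no test, error or paired comparison could be made. The alternatives were no centring, quantile normalization, loess (span 0.3), values raised to the 25th percentile, other choices of probe set and other limits. The steps were tested on simulated arrays, with shifts placed only in probe sets of a mean level above 7, where 2 members lie. Recovery of a difference at lower levels was therefore not tested. Python 3.11.15, numpy 2.4.6, pandas 2.3.3, statsmodels 0.14.6 and matplotlib 3.10.9 were used.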

Additional observations from a re-analysis of the deposited data

How the results depend on the processing

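No paired analysis was possible because each title has 1 deposited column and the labels give no replicate numbers. The number of members above the array median stayed at 4 or 5 of 60 under no centring, quantile normalization, loess, raised low values, averaged probe sets and without probe sets ending in _x_at or _s_at. It was 3 with the probe set of the lowest level (38.1% of all genes), 2 with the median over genes (48.5%) and 8 when 1 array sufficed (58.9%). With values raised to the 25th percentile, 2 members (*Kcna5* and *Kcnc4*) were above 1 and 1 (*Kcne2*) below −1, with 0.831% and 0.533% of all genes. With a limit of 2 the counts were 2 and 0 (1.36% and 1.15% of all genes), and among the 5 members above the median 0 and 0 (0.274% and 0.0577% of such genes). With only genes above 0 on both arrays, a choice made after the data were seen, they were 7 and 3 (4.78% and 3.73%). Without centring, 1 member above the median (*Kcnab2*, at 0.30) passed 0.3. The median difference of the members was −0.022 with the probe set of the lowest level, 0 with raised low values and between 0.014 and 0.12 under the other settings. Of 28 named members, 9 moved by more than the spread between probe sets with raised low values, *Kcnmb1*, *Kcnj1*, *Kcna3*, *Kcnk3*, *Kcnj9*, *Kcnh7*, *Kcns2* and *Kcnj4* to 0 and *Kcnj14* to 0.19, since these values lie at the low end of the signal. Averaging the probe sets moved *Kcnj1* to 1.68 and *Kcnk3* to 0.43.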
